A study of Mus musculus with 6 samples.

Results

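The measurements cover 9 genes of the S100 family, small calcium-binding proteins, in 3 mouse cell populations. The members were taken by name, as every probe set whose only platform gene symbol was one of 10 listed S100 genes. This gave 13 probe sets for 9 genes, of 45137 probe sets and 18193 named genes on the arrays. The tenth, S100a11, was covered by 1 probe set that also carried other symbols, so no value is given for it.

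The populations all came from OMP-GFP mice, a line in which GFP stands in the place of the coding region of Omp, the olfactory marker protein gene that mature olfactory and vomeronasal sensory neurons switch on. Mature olfactory sensory neurons (OSNs), the neurons that detect odours, were sorted by fluorescence, about 500000 cells. The epithelium remaining without them, here the residual epithelium, was about 2500000 cells. The third population was whole brain lacking the olfactory bulb. The sort rests on the Omp promoter, so it collects neurons that have already matured, and the residual population is a mixture of everything else in the tissue. The age, sex and strain of the mice, whether they carried 1 or 2 copies of the GFP allele, and whether RNA was pooled over animals are not stated in the labels. Each population was hybridised once to each of 2 Affymetrix chips, A and B, so there were 6 arrays and no replicates. No p-value is given, and in these bulk samples fewer cells of a type and less RNA per cell cannot be told apart.

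S100 proteins are small and usually work as dimers. Each subunit carries a pair of EF-hand loops that bind calcium, and binding exposes a surface that grips a partner such as an annexin, a kinase or the tumour suppressor p53. Some members also leave the cell and act on receptors such as the advanced glycation receptor (Ager) and Toll-like receptor 4. The family is known for restricted cell types. S100a8 and S100a9 together form calprotectin, the abundant cytosolic protein of neutrophils. S100b is a classic glial marker, S100a4 and S100a6 are known from mesenchymal and dividing cells, and S100a5 is known from olfactory neurons.

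All values are probe set signals in arbitrary units on a linear scale, each array scaled by the depositors to a common level, so a signal can be compared between populations for 1 probe set but not between probe sets. Ratios were taken within a chip on the log2 scale. Signals below the lower quartile of a chip (70.3 on chip A, 79.7 on chip B, the floor) were raised to it, and a ratio with its lower side at the floor is written as "at least". A gene entered a comparison (was counted) if its higher signal reached the chip median (222.0 and 243.7), and was called higher or lower from a 2-fold ratio. Each gene was read from its brightest probe set by rank. On 100 probe sets present on both chips, the SD between chips of the log2 ratio was 0.25 for OSN to residual, 0.29 for OSN to brain and 0.34 for residual to brain. The chips also differed in level, which an SD leaves out. Chip B less chip A, the mean difference was -0.23, 0.19 and 0.42 in the same order. Between different probe sets of 1 gene the SDs were 0.62, 0.79 and 0.78. These spreads do not stand for the spread between animals.

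As a check of the populations, all 6 markers of mature OSNs were higher in OSNs than in the residual epithelium and in brain. All 6 sustentacular and gland markers, which belong to supporting cells of the epithelium, were higher in residual epithelium than in brain. But the sorted OSNs also carried 5 of them, each called higher than in brain. The other, Muc5b, read 176.2 in OSNs, below the chip median. The summed signal of the 6 markers was 17215 in OSNs, 87.5% of the 19667 in residual epithelium, a sum in which the brightest probe sets weigh most. Gene by gene, the OSN signal ran from 19.5% of the residual signal for Krt18 to 189.7% for Sec14l3, with a median of 47.6%. Only 3 of the 6 (Cbr2, Krt8 and Krt18) were lower in OSNs by 2-fold, whereas Cyp2g1 read 3821.8 in OSNs and 2657.3 in residual epithelium, and Sec14l3 8815.3 and 4645.9. The part of such cells in the OSN signals of the S100 genes was not tested. All 6 astrocyte markers and all 5 counted oligodendrocyte markers were lower in residual epithelium than in brain. Of the 10 neutrophil and marrow markers on the arrays, the 9 counted were higher in residual epithelium than in either other population. In each of these comparisons, a marker with only 1 signal above the chip median had its direction fixed by the filter. Among the neutrophil and marrow markers these were Camp, Lcn2, Elane, Chil3, Mmp8 and Mmp9, and against brain also Mpo.

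Most S100 genes lie on mouse chromosome 3. The RefSeq table of GRCm38.p6 places 15 of them there, in the order S100a1, S100a13, S100a14, S100a16, S100a3, S100a2, S100a4, S100a5, S100a6, S100a7a, S100a8, S100a9, S100a7l2, S100a11 and S100a10, and 3 elsewhere, among them S100b on chromosome 10. From S100a1 to S100a9 no other protein-coding gene lies between neighbours, while 1 lies between S100a9 and S100a7l2 and 54 lie between S100a7l2 and S100a11. The 250 bases before the annotated start, from RefSeq on GRCm38.p6, are shown for 5 members. They are S100a5 and its neighbour S100a4, whose OSN to residual ratios had opposite signs, the pair S100a8 and S100a9, whose signals moved together, and S100b, the member read almost only in brain. The windows are chr3:90603520-90603769 on the plus strand for S100a4, chr3:90608272-90608521 on the plus strand for S100a5, chr3:90668821-90669070 on the plus strand for S100a8, chr3:90695722-90695971 on the minus strand for S100a9 and chr10:76253586-76253835 on the plus strand for S100b. Capitals mark matches to 3 motifs searched on both strands, with no overlap between matches in these windows.
S100a4: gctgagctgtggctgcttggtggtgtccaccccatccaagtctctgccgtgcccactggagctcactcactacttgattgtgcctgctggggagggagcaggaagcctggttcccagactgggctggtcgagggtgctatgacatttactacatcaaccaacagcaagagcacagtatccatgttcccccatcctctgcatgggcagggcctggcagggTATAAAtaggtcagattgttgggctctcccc
S100a5: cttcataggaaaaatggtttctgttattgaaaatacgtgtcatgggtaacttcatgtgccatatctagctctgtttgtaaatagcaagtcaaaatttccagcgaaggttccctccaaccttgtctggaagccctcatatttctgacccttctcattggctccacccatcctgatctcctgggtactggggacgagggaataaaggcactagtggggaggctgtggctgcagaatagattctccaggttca
S100a8: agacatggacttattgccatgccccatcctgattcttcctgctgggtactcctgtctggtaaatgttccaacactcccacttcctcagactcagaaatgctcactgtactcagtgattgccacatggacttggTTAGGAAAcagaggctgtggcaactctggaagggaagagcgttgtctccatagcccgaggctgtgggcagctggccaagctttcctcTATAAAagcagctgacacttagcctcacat
S100a9: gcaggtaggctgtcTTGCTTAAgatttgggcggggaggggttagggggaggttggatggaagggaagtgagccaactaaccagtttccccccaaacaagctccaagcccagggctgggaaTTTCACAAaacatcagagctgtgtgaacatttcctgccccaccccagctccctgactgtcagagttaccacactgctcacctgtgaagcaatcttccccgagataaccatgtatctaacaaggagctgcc
S100b: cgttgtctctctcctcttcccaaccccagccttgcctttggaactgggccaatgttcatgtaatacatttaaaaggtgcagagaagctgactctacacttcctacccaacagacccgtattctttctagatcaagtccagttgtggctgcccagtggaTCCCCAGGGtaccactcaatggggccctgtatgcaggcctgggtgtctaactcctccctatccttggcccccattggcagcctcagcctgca

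The first motif, CCCNNGGGA, is part of the site of EBF factors, which many OSN genes are known to use. The windows searched were those of S100a11 and of the measured members other than S100a10, 9 in all. The motif was in 5.60% of 32851 promoter windows of the same length, and among these 9 only in that of S100b, 92 bases before the start. The S100a5 window did not hold these letters. The second, TTNNGNAA, is part of the site of C/EBP factors, known from myeloid cells, and was in 36.8% of all windows. Among the same 9 it was in those of S100a8 (117 bases before the start) and S100a9 (236 and 130 bases before it). The TATA box letters TATAAA were in 12.4% of all windows and, of the members, in S100a4 (31 bases before the start) and S100a8 (30 bases). The member windows held between 2 and 13 CpG dinucleotides, against a median of 6 over all windows, and 6 of the 9 were below it. S100a5 held 3, S100a8 and S100a9 2 each, and S100a13 the most. S100a1 and S100a13 start 105 bases apart on opposite strands, so their windows share 204 bases in the 300-base table entries. A match is a description of letters and not a site shown to be used.

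S100a5 was the member with the highest OSN signal relative to the other populations. The OSN, residual and brain signals were 19449.7, 436.7 and 117.1 (probe set 1449927_at on chip A). Only the OSN array was high, the residual array stood above the chip median and the brain array was below it. The OSN signal was 44.5-fold that of the residual epithelium and 166-fold that of brain, log2 ratios of 5.48 and 7.38, many times the SD between chips. Only 6 of 12254 counted genes had a larger OSN to residual ratio and only 6 of 12380 a larger OSN to brain ratio. The residual signal was in turn 3.73-fold above brain.

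The residual signal of S100a5 was 2.25% of its OSN signal. The same share for Omp, the gene behind the sorting marker, was 2.25% as well, and over the 6 mature OSN markers it ran from 1.21% for Cnga4 to 5.57% for Cnga2, with a median of 2.36%. The brain signal was 0.602% of the OSN signal for S100a5 and 1.82% for Omp. Whether the residual S100a5 signal came from OSNs left in that population was not tested.

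**Figure D1:**
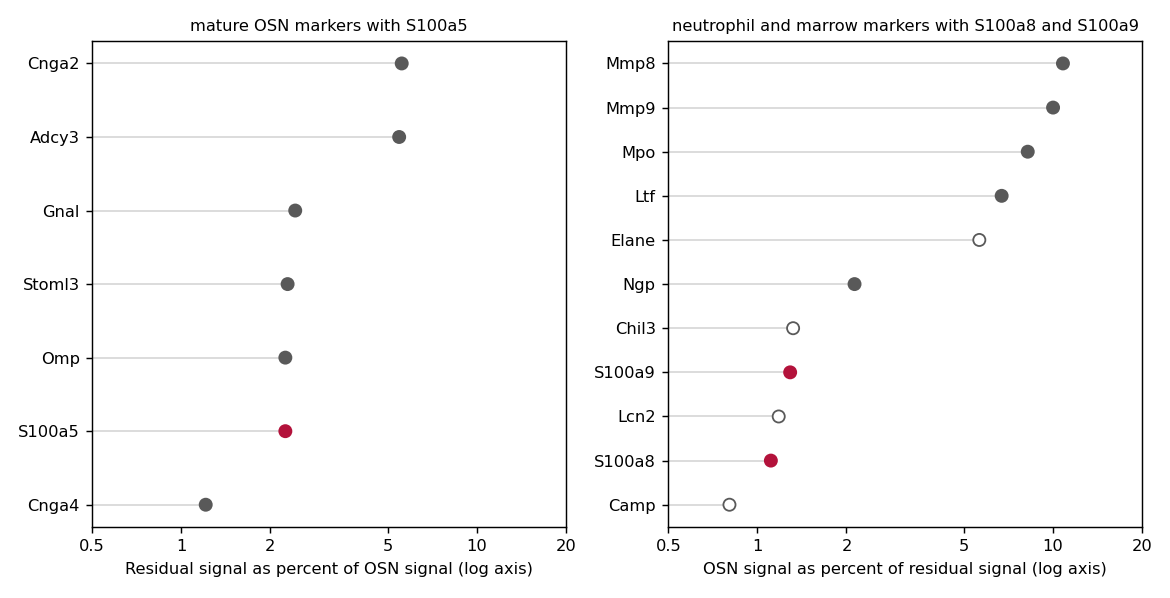
Left, the residual signal as percent of the OSN signal for S100a5 (red) and 6 mature OSN markers (grey). Right, the OSN signal as percent of the residual signal for S100a8 and S100a9 (red) and 9 neutrophil and marrow markers. Open circles are upper bounds because the lower signal was at the floor, and both axes are logarithmic. S100a5 sits at 2.25%, level with Omp, and S100a8 and S100a9 sit at 1.11% and 1.29%, below all 5 markers measured in both populations.

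With no replicate arrays, likeness was taken as the distance between log2 signals of the 3 populations, each gene centred on its own mean, among 7187 counted genes on chip A that are not members. Nearest to S100a5 were Cnga2, a subunit of the olfactory cyclic nucleotide-gated channel (distance 1.02 log2 units), Carns1, which makes the dipeptide carnosine (1.08), and Omp (1.30). The Carns1 signals were 5630.6 (OSNs), 349.6 (residual epithelium) and 72.1 (brain). Of the members on chip A, the nearest was S100a13 at a distance of 5.25. S100a10, represented on chip B, was not compared. A likeness over 3 points says little beyond which population is highest.

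S100a8 and S100a9 had the opposite pattern and were almost the same as each other. The OSN, residual and brain signals of S100a8 were 182.9, 16474.9 and 88.7 (1419394_s_at). Those of S100a9 were 219.3, 16940.0 and 100.8 (1448756_at). For each gene only the residual array was high, while the OSN and brain arrays lay under the chip median. The log2 ratios of OSNs over residual epithelium were -6.49 and -6.27, or 90.1-fold and 77.2-fold lower in OSNs, and those of residual epithelium over brain were 7.54 and 7.39. Of 12916 counted genes, none had a larger residual to brain ratio than S100a8 and 4 had a larger one than S100a9. The patterns of the pair lay 0.16 log2 units apart.

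Against brain, the OSN signals of S100a8 and S100a9 were 2.06-fold and 2.18-fold higher, but all 4 signals were below the chip median and neither gene was counted in that comparison. The OSN signal was 1.11% of the residual signal for S100a8 and 1.29% for S100a9. Among the 5 neutrophil and marrow markers above the floor in both populations, that share ran from 2.13% for Ngp to 10.8% for Mmp8. The other 4 counted markers were at the floor in OSNs, with upper bounds from 0.804% for Camp to 5.63% for Elane. The marker list as a whole, 10 of its 12 genes on the arrays, summed to 1559 for OSNs, 49002 for residual epithelium and 1165 for brain. None of the 10 was at 0, and 5 were at the floor in OSNs. The genes nearest in pattern to S100a8 were Camp, an antimicrobial peptide (0.74), Lcn2, an iron-scavenging protein of neutrophils (0.89), and Lyz1, a lysozyme (0.97). For S100a9 they were Camp (0.80), Lcn2 (0.87) and Chil3, a chitinase-like protein of myeloid cells (0.93). Camp, Lcn2 and Chil3 were at the floor in both OSNs and brain, so their distances depend on the floor and on the residual signal. Which cells of the residual population carried calprotectin transcripts was not tested.

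**Figure D2:**
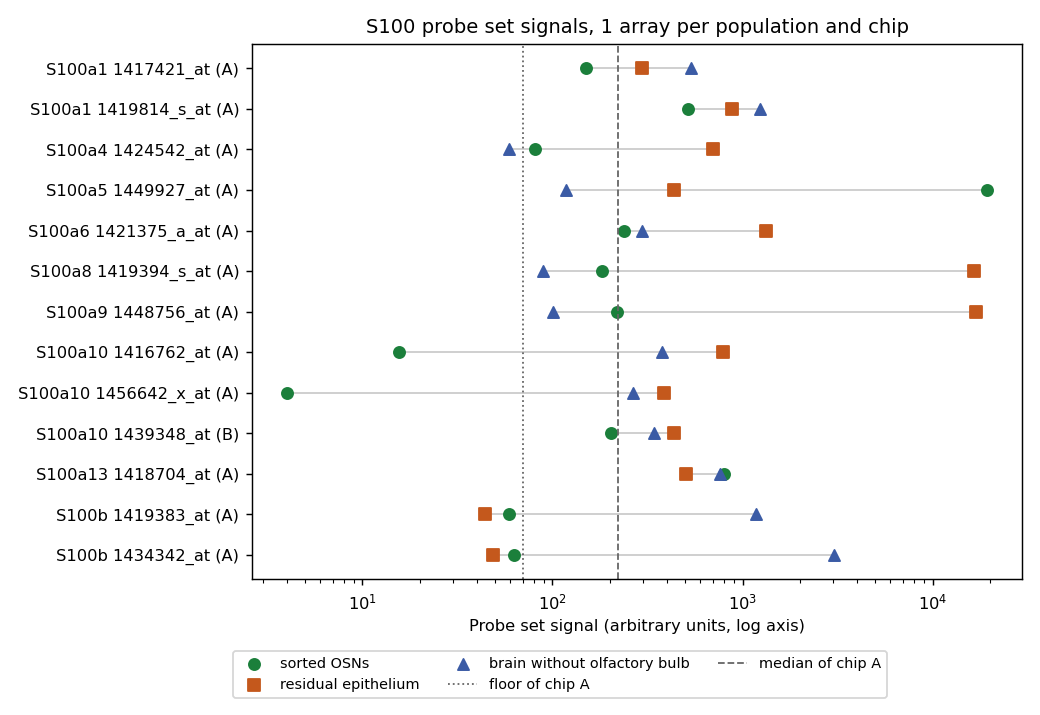
Signal of each S100 probe set (rows, chip in brackets) in sorted OSNs (circles), residual epithelium (squares) and brain without olfactory bulb (triangles) on a logarithmic axis, 1 array each. Dotted and dashed lines give the floor (70.3) and the median (222.0) of chip A. S100a5 is far right in OSNs only, S100a8 and S100a9 in residual epithelium only, and both S100b probe sets in brain only.

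S100a4, S100a6 and S100a10 were also highest in the residual epithelium. S100a4, also called metastasin, binds non-muscle myosin and is used as a marker of fibroblasts and of some leukocytes. Its OSN signal was 80.8, its residual signal 702.6 and its brain signal 59.1 (1424542_at). Only the residual array exceeded the chip median, and the brain array was at the floor. It was 8.70-fold lower in OSNs than in residual epithelium, and at least 9.99-fold higher in residual epithelium than in brain. Its OSN signal lay close to the floor, and with the floor at percentile 40 the log2 ratios of -3.12 and 3.32 became -2.26 and 2.26.

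S100a6, or calcyclin, is induced when cells enter the cycle. It had signals of 237.7, 1325.7 and 296.9 in OSNs, residual epithelium and brain (1421375_a_at). The OSN and brain arrays were close, at a log2 ratio of -0.32 against an SD of 0.29 between chips, and the residual array was 5.58-fold above OSNs and 4.47-fold above brain. The patterns of S100a4 and S100a6 lay 0.82 log2 units apart.

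S100a10, or p11, has lost the ability to bind calcium and forms a complex with annexin A2. Its 3 probe sets gave the same order and different sizes. On chip A, 1416762_at had signals of 15.5, 787.7 and 376.3 in OSNs, residual epithelium and brain, and 1456642_x_at had 4.0, 385.8 and 264.7. On chip B, 1439348_at had 204.1, 435.9 and 342.6. On chip A the OSN signal was at the floor and the residual signal at least 11.2-fold and at least 5.49-fold higher, whereas on chip B it was 2.14-fold higher. The chip B probe set stands for the gene in the counts, and its ratio of -1.09 is close to the limit for a call. It became -0.99, -0.95 and -0.98 with a pseudocount, quantile normalization and scaling on the shared probe sets, all short of 2-fold. With the floor at percentile 40, 1416762_at on chip A stood for the gene instead. Its ratio was then -2.43, against -3.49 with the main floor. The median and the lowest probe set gave -2.46, the ratio of 1456642_x_at on chip A. Anxa2, the annexin partner, named here after its values were seen, had signals of 514.5, 2661.2 and 461.0 (1419091_a_at), so it was 5.17-fold lower in OSNs than in residual epithelium. The OSN signals of its other probe sets were at the floor.

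Markers of several cell types, though not of all, were lower in OSNs than in residual epithelium, as these 3 genes were. Between residual epithelium and OSNs, all 6 counted fibroblast and stroma markers of 7, all 5 horizontal basal cell markers, 6 of 7 counted macrophage and monocyte markers of 8 and all 9 counted neutrophil and marrow markers were lower in OSNs. Over all counted genes 18.7% were lower. All 5 basal cell markers were counted only through their residual signal, which fixes the sign of their ratio. The same holds for Col1a1, Col3a1 and Lum of the stroma list and for Cd68, Adgre1 and Cd14 of the macrophage list. It also holds for Camp, Lcn2, Elane, Chil3, Mmp8 and Mmp9 of the neutrophil list. Pdgfra, the stroma marker not counted there, was at the floor in both populations and read 401.9 in brain. Of the sustentacular and gland markers 3 of 6 were lower. So were 2 of 4 counted astrocyte markers, 1 of 3 counted oligodendrocyte markers and 1 of 2 counted ensheathing glia markers. The oligodendrocyte marker was Cnp, counted only through its residual signal. The endothelium list summed to 768 and 697 in OSNs and residual epithelium, and its 1 counted marker, Kdr, was not lower. The summed signal of the stroma list was 2334, 11358 and 3215 in OSNs, residual epithelium and brain, and that of the macrophage list 2135, 20899.8 and 5645. The basal cell list had 265, 2104 and 184, with 4 of its 5 genes at the floor in OSNs. No marker of these lists was at 0. The part of each cell type in the S100 signals was not tested. Nearest in pattern to S100a4 were Ada, which encodes adenosine deaminase (0.05), Cd1d1, a lipid-presenting molecule (0.09), and Ermap, an erythroid membrane protein (0.10). S100a4, Ada and Cd1d1 were at the floor or close to it in both OSNs and brain. Their distances therefore depend largely on the floor and on the residual signal.

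S100b and S100a1 were highest in brain. S100b, made by astrocytes and other glia, had OSN, residual and brain signals of 62.8, 48.8 and 3026.9 with 1434342_at, and 58.8, 44.2 and 1174.5 with 1419383_at. Only the brain array was above the floor with either probe set. Brain was at least 43.1-fold higher than each other population with the first probe set and at least 16.7-fold with the second. Between OSNs and residual epithelium S100b has no measured ratio, and it was not counted there. Ensheathing glia of the olfactory nerve are known to make S100b. Of the list for those cells, Sox10 had OSN, residual and brain signals of 288.1, 327.2 and 636.1, and Fabp7 69.5, 89.6 and 1235.7. Apoe, which other cells also make, had 309.5, 4973.7 and 10744.0. Npy had 132.9, 153.0 and 1343.5, and Ngfr, below the chip median in all 3 populations, had 164.6, 152.0 and 212.7. The 5 measured genes of that list summed to 965, 5696 and 14172, with 1 at the floor in OSNs and none at 0, and most of the residual sum was Apoe.

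The astrocyte list summed to 1928, 2742 and 30975 in OSNs, residual epithelium and brain, and the oligodendrocyte list to 841, 4238 and 27166. None of their genes was at 0, and 1 oligodendrocyte marker was at the floor in OSNs and in residual epithelium. Their part in the S100b signal was not tested. Nearest in pattern to S100b were Pcp2, a gene of Purkinje cells (0.00), Gabra6, a GABA receptor subunit of cerebellar granule cells (0.02), and Slc4a10, a neuronal bicarbonate transporter (0.10). Like S100b these had both other arrays at the floor, so the distance compares brain signals only and does not set neurons apart from glia.

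S100a1, known from muscle and also found in brain, fell in the same order with both of its probe sets. In OSNs, residual epithelium and brain 1419814_s_at had 519.5, 877.2 and 1233.6, and 1417421_at had 150.5, 296.4 and 535.1. All 3 populations were above the chip median with the first. OSNs were 2.37-fold and 3.56-fold below brain, and 1.69-fold and 1.97-fold below residual epithelium. The log2 ratios against the residual epithelium, -0.76 and -0.98, did not reach 2-fold.

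S100a13, which takes part in the export of proteins that lack a secretion signal, such as fibroblast growth factor 1, was the flattest member. Its OSN, residual and brain signals were 795.4, 504.9 and 758.7 (1418704_at). OSNs and brain were within 0.07 log2 units, less than the SD of 0.29 between chips. The residual epithelium was lowest, 1.58-fold below OSNs, a log2 ratio of 0.66 against an SD of 0.25 between chips and 0.62 between probe sets of a gene. S100a1, whose start faces that of S100a13, had negative log2 ratios in both comparisons, -0.76 and -1.25.

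**Figure D3:**
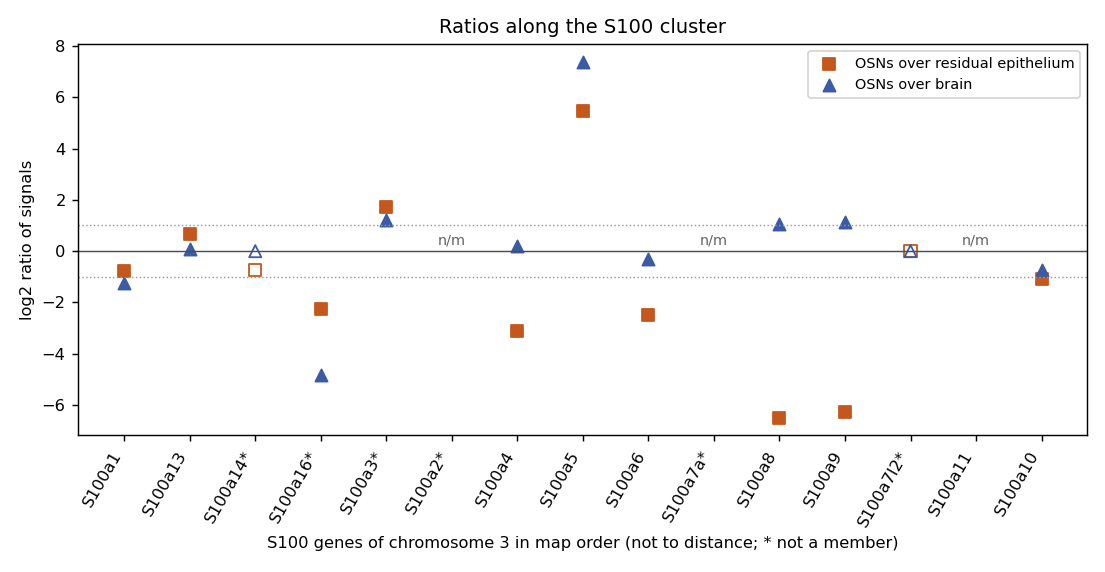
Log2 ratios of OSNs over residual epithelium (squares) and over brain (triangles) for the 15 S100 genes of chromosome 3 in map order, not to distance. Open symbols are genes under the signal filter in all 3 populations, n/m marks genes with no value here, an asterisk marks genes that are not members, and dotted lines are at 2-fold. S100a5 stands at 5.48 and 7.38 between S100a4 at -3.12 and 0.20 and S100a6 at -2.48 and -0.32.

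Neighbours in the cluster did not all share a pattern. S100a4, S100a5 and S100a6 follow each other with no other protein-coding gene between them in the RefSeq table, and their OSN to residual log2 ratios were -3.12, 5.48 and -2.48. S100a8 and S100a9, also adjacent, were alike. Of the 8 other S100 genes listed, 5 had a probe set with a single symbol and 2 passed the signal filter. S100a3, which lies 3 S100 genes before S100a5, had OSN, residual and brain signals of 233.4, 49.2 and 99.7 (1421856_at), so OSNs were highest, at least 3.32-fold above residual epithelium and 2.34-fold above brain. That OSN signal was just above the chip median. S100a16 was highest in brain, with signals of 438.1, 517.0 and 1998.9 on chip A (1425560_a_at) and 157.4, 752.1 and 4500.0 on chip B (1447676_x_at). Its probe sets disagreed on the OSN to residual ratio, -0.24 against -2.26. S100a14 was below the chip median in all 3, highest in residual epithelium at 118.5, and S100g and S100a7l2 were at the floor in all 3 populations. The 5 measured genes of fused S100 proteins of skin (Flg, Hrnr, Rptn, Tchh and Tchhl1) were all under the filter.

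Read as counts, 8 of the 9 members were counted between OSNs and residual epithelium. S100a5 was higher in OSNs and 5 were lower, namely S100a4, S100a6, S100a8, S100a9 and S100a10. Over all 12254 counted genes 12.8% were higher and 18.7% lower. The median log2 ratio was -1.79 over the 8 members and -0.05 over all genes. Of the 5 lower members, 4 had only the residual signal above the chip median, which fixes the sign of their ratio, S100a6 being the exception.

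Between OSNs and brain 6 members were counted, with S100a5 higher and S100a1 and S100b lower. S100a10, at -0.75, was not called, but it was called lower under 4 alternatives, at -1.36 with the floor at percentile 40, -1.09 with scaling on shared probe sets and -1.91 with the median or the lowest probe set. The values of -1.36 and -1.91 are those of chip A probe sets, read in place of the chip B one. Of 12380 counted genes 18.5% were higher and 21.1% lower, with medians of -0.53 over the members and 0.05 over all. Between residual epithelium and brain all 9 were counted, 5 were higher (S100a4, S100a5, S100a6, S100a8 and S100a9) and S100b was lower, against 22.5% and 18.9% of 12916 genes. The medians there were 1.90 and 0.12. In these comparisons 3 of 6 and 5 of 9 members had only 1 signal above the chip median. Scaling on the shared probe sets moved the median of all genes by -0.28 for OSNs over brain and by -0.26 for residual epithelium over brain. Of all calls, 46.7% were higher in OSNs than in brain in the deposited scaling and 35.3% in that one, and for residual epithelium over brain 54.3% and 42.7%.

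**Figure D4:**
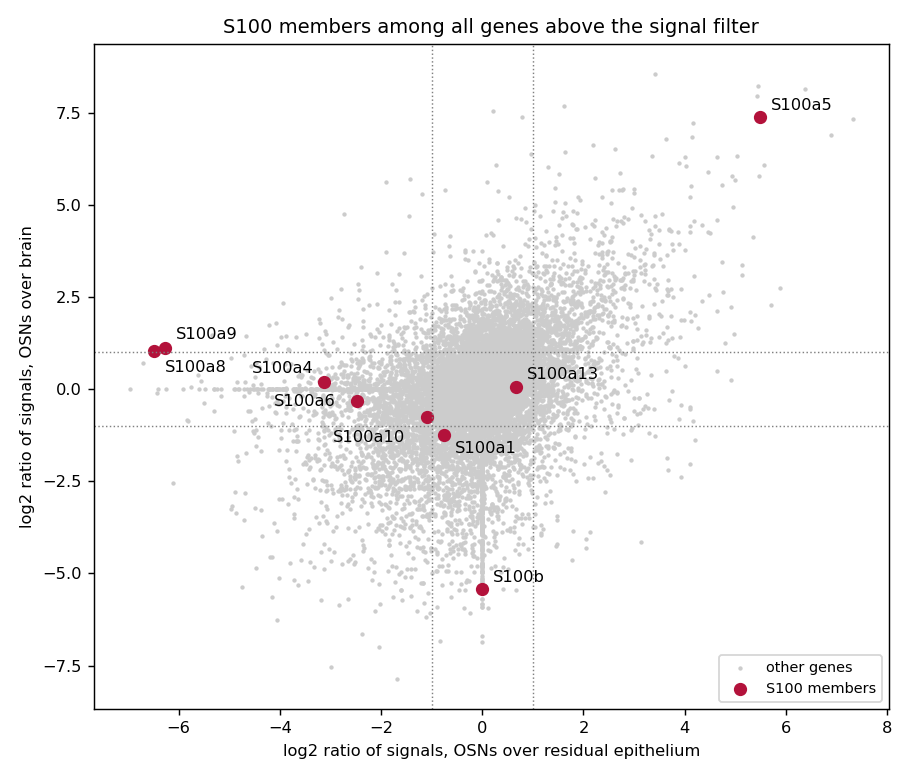
Log2 ratio of OSNs over residual epithelium (x axis) against that of OSNs over brain (y axis) for all genes above the signal filter in any population (grey) and the S100 members (red). Both axes share the OSN arrays, dotted lines mark 2-fold, and the lines of points at 0 are genes at the floor on both sides of a ratio. S100a5 lies at the upper right (5.48, 7.38), S100a8 and S100a9 at the far left and S100b at the bottom (0.00, -5.43).

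Of 32 known partners and receptors of S100 proteins, 29 were on the arrays. Between OSNs and residual epithelium 21 were counted, 2 were higher and 6 lower, with a median log2 ratio of -0.17, beside 12.8% higher and 18.7% lower over all genes. The higher partners were Syt1, the calcium sensor of synaptic vesicles that forms a release complex with S100a13 (log2 ratio 2.67), and Asic1, an acid-sensing channel (2.83-fold). The lowest were Cybb, the phagocyte oxidase subunit that calprotectin helps to activate (-5.35), Tgm2, a transglutaminase (-4.91, a bound since OSNs were at the floor), and Anxa1, an annexin partner of S100a11 (-4.22). Cybb was lower with each of its 3 probe sets, from -5.35 to -3.27. The Syt1 probe sets ranged from 0.84 to 3.02.

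Against brain 22 partners were counted, 5 were higher and 6 lower in OSNs (median -0.06). Over all genes 18.5% were higher and 21.1% lower. The highest were Iqgap1, a scaffold protein (2.24), Myh9, the non-muscle myosin that S100a4 binds (1.88), and Anxa1 (1.73). The lowest were Mapt, the tau protein (-4.33), Ryr2, a calcium release channel (-3.78, a bound since OSNs were at the floor), and Fgf1 (-2.35). Probe sets of Iqgap1 ranged from -0.29 to 3.15, those of Myh9 from -0.38 to 1.88 and those of Mapt from -4.87 to -2.34. Ryr2 was at -1.82 with 1421126_at, where the OSN signal of 91.9 was above the floor. Fgf1 was at -3.70 with 1423136_at and at the floor in all 3 populations with 1441042_at. The receptor Ager was at the floor in all 3 populations with both probe sets, and Tlr4 had signals of 75.5, 147.5 and 78.5 in OSNs, residual epithelium and brain (1418163_at), below the chip median. Both receptors were named after their values were seen.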

How the data were processed

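The deposited value tables hold 1 intensity per probe set and array, on a linear scale with 1 colour. Per the submitters' processing notes these are MAS5 signals, a name recorded for 5 arrays and absent for the chip A brain array. No version or scaling target is given. The mean between percentile 2 and percentile 98 was 499.6 to 499.9 on all 6 arrays. Symbols came from the platform annotation, updated through Entrez identifiers to RefSeq (GRCm38.p6). Control probe sets (64 per chip) were left out.

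The floor (percentile 25), filter (percentile 50) and 2-fold limit are given with the results. Members, lists and named-gene rules were chosen with earlier results of these data known. The text names every member, other S100 genes on the arrays, the 3 highest and 3 lowest called partners in each OSN comparison, and the 3 nearest patterns of members past 8-fold by the representing probe set. A marker list's summed signal adds the representing probe sets of its genes over both chips, so its brightest probe sets weigh most. For arrays, their number limits precision. The calling steps were also run on simulated arrays, with set changes well past 2-fold and noise below the SDs between chips. That run cannot test calls near the 2-fold limit. Tables were computed in Python 3.11.15 with pandas 2.3.3 and numpy 2.4.6. Alternatives were a lower floor (percentile 10), a higher floor (percentile 40), a pseudocount of 32, no filter, a filter at percentile 75, median centring, quantile normalization, scaling on shared probe sets, the median or the lowest probe set of a gene, and a 3-fold limit.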

Additional observations from a re-analysis of the deposited data

How the results depend on the processing

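With 1 array per population and chip, no replicate could be left out. Across 11 alternatives, 63 of 66 counts of S100 members called stayed within 1.5 times the value given in the report. The exceptions were all in OSNs over brain. Without the signal filter 3 members were higher in OSNs, and with quantile normalization 2 were, against 1 in the report. With a 3-fold limit 1 member was lower, against 2. The extra members without the filter were S100a8 and S100a9, whose signals lay below the chip median in both populations. Of 225 single log2 ratios of members recomputed, none changed sign from a called value, 194 moved by less than the SD between chips and 31 moved by more. The 40th percentile floor accounted for 10 of these 31 and the choice of the lowest probe set for 6. The residual to brain ratio of S100a10, 0.35 and not called, was -0.11 with scaling on the shared probe sets and 1.07, past 2-fold, with the floor at percentile 40. That 1.07 is the ratio of 1416762_at on chip A, which stood for the gene under that floor. Signals at the floor limit what can be said of S100b in OSNs and residual epithelium, S100a4 in brain and S100a10 in OSNs on chip A. The largest ratios over brain also depend on the floor. With it at percentile 40, the OSN to brain ratio of S100a5 went from 7.38 to 7.05. The residual to brain ratios of S100a8 and S100a9 went from 7.54 to 6.82 and from 7.39 to 6.86.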
